A study of Sus scrofa and Bos taurus with 31 samples.

Results

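Cytochrome P450 genes were identified in the pig genome as the protein-coding genes of chromosomes 1 to 18 whose symbol is CYP, a number, a letter and a number, which gave 36 genes of 18725 in the Sscrofa11.1 RefSeq annotation. ATAC-seq, which tags accessible DNA with a transposase, had been run on 16 libraries from 8 tissues (liver, lung, cerebellum, cerebral cortex, hypothalamus, adipose, skeletal muscle and spleen) of the animals P348 and P350. The study describes these as castrated male Yorkshire littermates of the same age, so each tissue had 2 libraries and the spread between them is the spread between siblings. Nuclei had been prepared from fresh whole tissue and then frozen, so more open chromatin in a cell type and more cells of that type cannot be told apart. The deposited peak lists hold no read counts, and read depth was not used here.

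Cytochrome P450 enzymes are haem proteins that insert an oxygen atom into their substrates. Families 1 to 3 mainly handle drugs and other foreign compounds, family 4 hydroxylates fatty acids, and the higher family numbers mostly make or break down steroids, bile acids and vitamins. Liver is best known for the drug-metabolising and bile acid enzymes, while most steroid-making members are known from adrenal gland and gonad. The question posed here was how accessible each gene was in liver relative to lung, to the 3 brain tissues, and to the other tissues (adipose, skeletal muscle and spleen).

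Promoters were examined first, because several members had a peak over or just upstream of the transcription start site (TSS) in both liver libraries and in few others. The 250 bases before the most upstream annotated start are given for 4 of these genes and for CYP2J34, whose start lay under a peak in all 16 libraries; all were chosen after their values were seen. They were read from Sscrofa11.1 on the gene's strand, 5′ to 3′, and capitals mark matches to short motifs searched on both strands. These were AGGTCA for nuclear receptors, GTTAAT for HNF1 factors, TTGCNNAA for C/EBP factors, TGTTTAC for forkhead factors, TATAAA for the TATA box and GCGTG for the core of the xenobiotic response element.
CYP2D25: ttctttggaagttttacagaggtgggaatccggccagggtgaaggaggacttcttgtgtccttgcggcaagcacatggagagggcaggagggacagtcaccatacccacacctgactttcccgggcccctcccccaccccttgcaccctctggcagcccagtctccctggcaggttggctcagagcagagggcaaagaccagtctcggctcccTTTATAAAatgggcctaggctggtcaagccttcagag
CYP3A29: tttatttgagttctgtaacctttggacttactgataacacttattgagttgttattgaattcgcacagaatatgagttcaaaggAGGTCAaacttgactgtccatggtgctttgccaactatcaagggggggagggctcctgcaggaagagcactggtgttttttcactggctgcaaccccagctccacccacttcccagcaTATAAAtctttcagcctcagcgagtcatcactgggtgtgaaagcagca
CYP2C42: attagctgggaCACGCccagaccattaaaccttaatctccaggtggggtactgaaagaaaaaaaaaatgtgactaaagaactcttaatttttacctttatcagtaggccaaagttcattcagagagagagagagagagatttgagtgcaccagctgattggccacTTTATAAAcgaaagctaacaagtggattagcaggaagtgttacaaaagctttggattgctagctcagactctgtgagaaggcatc
CYP2E1: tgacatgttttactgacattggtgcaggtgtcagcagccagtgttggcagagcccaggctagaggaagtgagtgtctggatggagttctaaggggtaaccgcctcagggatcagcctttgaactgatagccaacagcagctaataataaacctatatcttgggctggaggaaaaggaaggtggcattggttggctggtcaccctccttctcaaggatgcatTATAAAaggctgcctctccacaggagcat
CYP2J34: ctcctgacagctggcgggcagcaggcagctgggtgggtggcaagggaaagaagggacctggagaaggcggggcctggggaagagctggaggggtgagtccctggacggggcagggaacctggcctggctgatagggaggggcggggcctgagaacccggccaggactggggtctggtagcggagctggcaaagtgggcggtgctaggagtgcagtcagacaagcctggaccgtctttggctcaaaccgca
These stretches lie at chr5:6538771-6539020, chr3:6738252-6738501, chr14:106666195-106666444, chr14:141690487-141690736 and chr6:152468700-152468949 on the plus strand.

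CYP2D25, an enzyme of vitamin D and drug hydroxylation, was the only member with a peak over its start in both liver libraries and in none of the 14 others. The peak ran from -154 to 103 bp of the start in liver P348 (fold enrichment 3.30) and from -109 to 118 bp in liver P350 (3.34). All 16 libraries also had a second peak region, centred 1858 bp downstream, so CYP2D25 counted as open within 2 kb everywhere. Over all genes, 0.331% had a start covered in both liver libraries and no other library.

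CYP3A29, the pig member closest in role to the main human drug-metabolising enzyme, had a peak entirely upstream of its start, from -211 to -12 bp in liver P348 (fold 4.37) and from -208 to -7 bp in liver P350 (4.73). Spleen P348 had a peak at the same place (4.29), and the other 13 libraries had none within 2 kb. It was the only member open within 2 kb of a start in both liver libraries and no lung library (0.764% of all genes), and again the only one against brain (0.7%). CYP2C42 was the only such member against the other tissues (0.502%), and its start peak was shared by both lung libraries, at folds of 3.51 and 3.18 beside 4.42 and 3.19 in liver. In the reverse direction, no member was open in both animals of a compared tissue and closed in liver, where 2.42%, 4.19% and 3.54% of all genes were, against lung, brain and other tissues respectively.

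CYP2E1, which oxidises ethanol and small solvents, had a peak from -527 to 154 bp in liver P348 (fold 4.24) and from -549 to 98 bp in liver P350 (3.47). Only adipose P348 also had its start covered, by a weaker peak lying mostly downstream (2.47). CYP2A19, the pig coumarin hydroxylase gene, had its start covered in both liver libraries and in lung P350. In liver P350 the peak ran from -11 to 1284 bp, so it lay mostly downstream and reached the start only at its edge. Peaks in 14 of the 16 libraries merged into the region at this start. With a peak over the start itself as the criterion, the members found in both liver libraries and no library of the other arm were CYP2D25 and CYP2E1 against lung (0.892% of all genes), CYP2D25, CYP2A19, CYP2C42 and CYP2E1 against brain (1.24%), and CYP2D25, CYP2A19 and CYP2C42 against other tissues (0.806%).

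**Figure D1:**
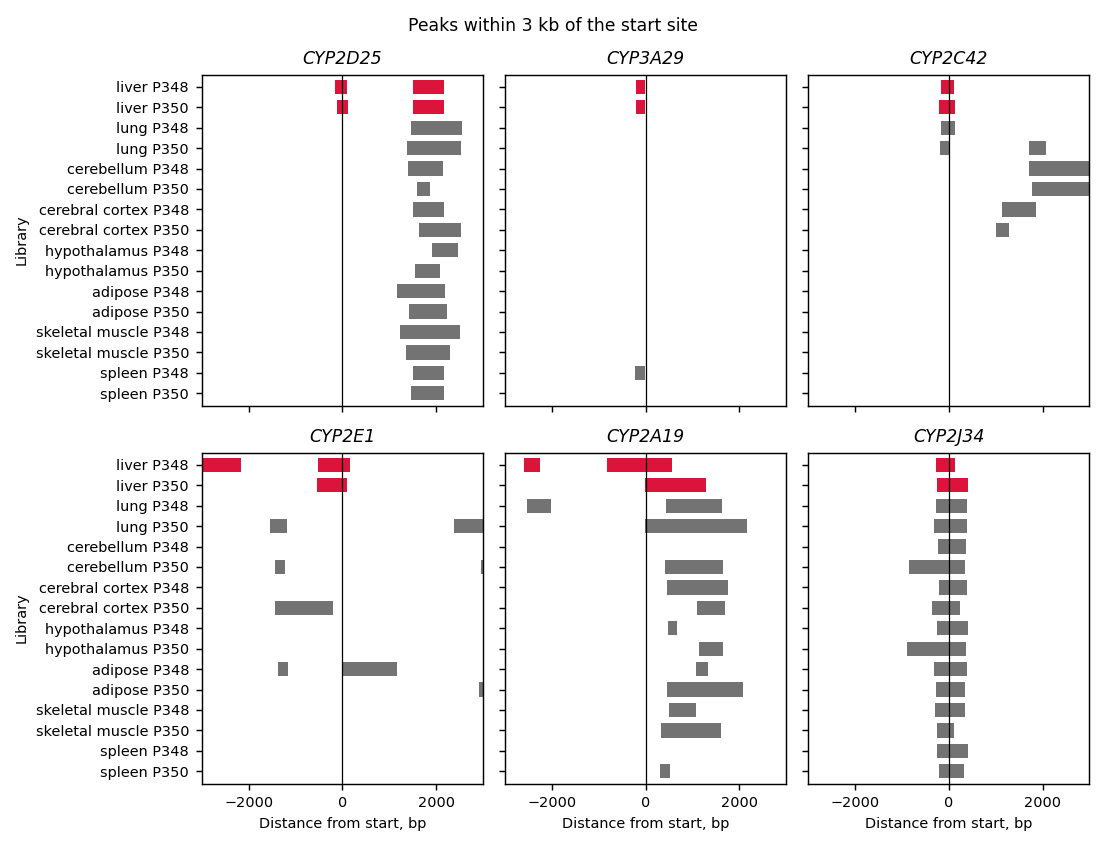
Peaks of each library (rows) by distance from the most upstream start in bp (horizontal axis, in the direction of transcription), liver in red and the other tissues in grey. CYP2D25 has a liver peak at the start beside a downstream peak in all 16 libraries, whereas CYP2J34 has its start covered in all 16.

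The letters TATAAA were found in the 250 bases of CYP2D25, CYP3A29, CYP2C42 and CYP2E1, and in 12 of 36 members, against 9.63% of 18722 promoters of this length in the annotation. Counted to its first base, it lay 29 bases before the start in CYP2E1, at -35 in CYP2D25, at -48 in CYP3A29 and at -83 in CYP2C42. In CYP2D25 and CYP2C42 it overlapped its own match on the other strand. CYP2J34 held none of the 6 motifs. The other motifs were each in 4 to 7 members: AGGTCA in 7 (12.2% of promoters), GTTAAT in 7 (5.81%), TTGCNNAA in 5 (8.19%), TGTTTAC in 4 (2.27%) and GCGTG in 7 (32.3%). Member promoters were also poorer in CpG, with a median of 2 CpG per 250 bases against 12 over all promoters, and CYP2J34 had 9.

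Fewer members than genes in general had an open start. In liver, 18 of 36 members (50%) had a peak within 2 kb of a start in both animals, against 77.2% of all genes. Lung had the most, 22 (81.2% of all genes), followed by liver and cerebral cortex with 18 each (77.2% and 77.3%). Cerebellum and adipose had 17 each (70.3% and 74.7%). Hypothalamus, skeletal muscle and spleen had 13 each (72.6%, 74% and 73.5%). The lung lists were longer than those of liver (171981 and 193317 peaks against 113682 and 139307), and with lists of equal length 16 members were open in lung and 18 in liver. At q under 0.01 these were again 16 and 18, and at q under 0.0001 they were 10 and 14. The shares over all genes in these settings are not given here. Over the start itself, liver and lung had 12 members each (63.1% and 66.6% of all genes), while hypothalamus, skeletal muscle and spleen had 5 each (58.7%, 62.7% and 60.4% of all genes).

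A number of members were open in every library, as were 58.0% of all genes. The 8 members with a peak within 2 kb in all 16 libraries included CYP2D25, CYP2J34, CYP2R1 (vitamin D 25-hydroxylase) and CYP4V2 (a fatty acid hydroxylase). The rest were CYP8B1 (sterol 12-alpha-hydroxylase), CYP20A1 (an orphan enzyme), CYP27A1 (sterol 27-hydroxylase) and CYP39A1 (an oxysterol hydroxylase). Of the 8, CYP2J34, CYP2R1, CYP4V2 and CYP20A1 had the start itself covered in all 16, as had 44.5% of all genes. The start of CYP27A1 was never covered. Its region with a peak in all 16 libraries began at chr15:120809904, just downstream of its start at chr15:120809886. The nearest start of another gene lay 307 bp from that of CYP39A1, belonging to SLC25A27, so their peaks cannot be told apart. CYP2B22, CYP4A21, CYP17A1 and CYP19A3 had no peak within 2 kb in any library, as had 5.70% of all genes.

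**Figure D2:**
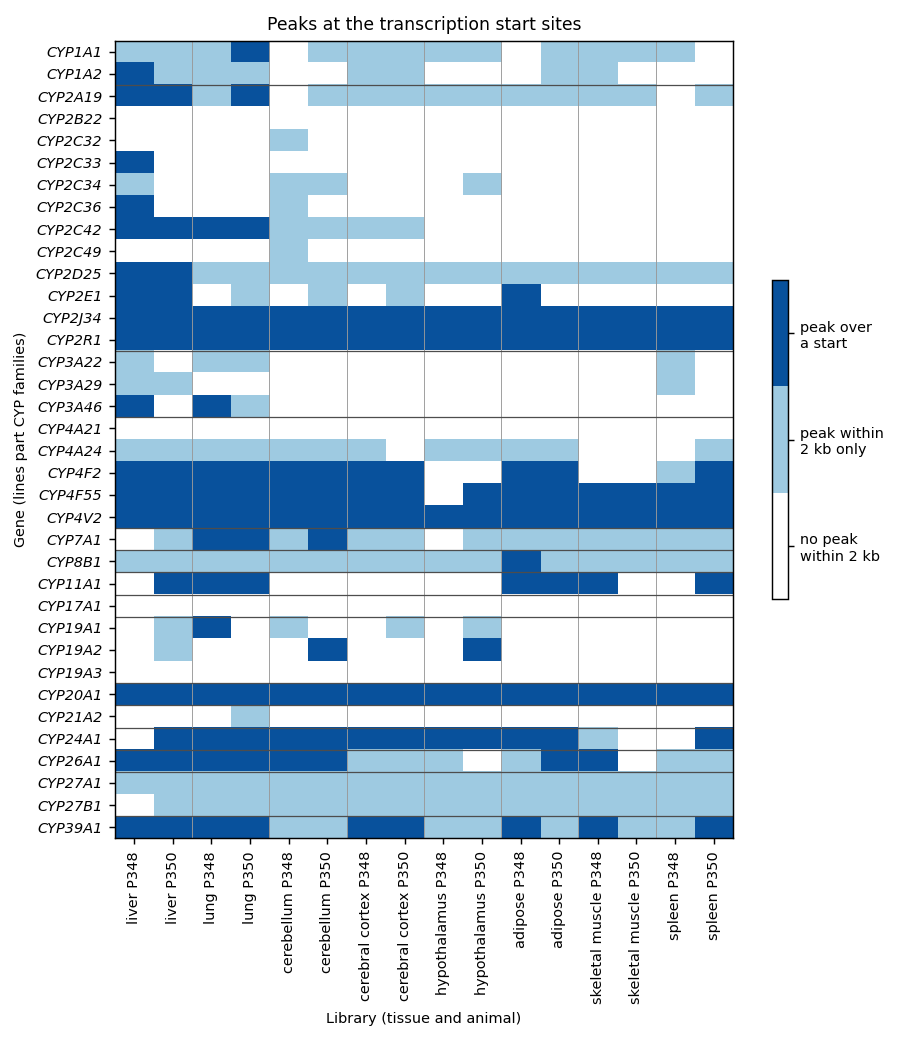
Each cell is a gene (row) in a library (column), dark where a peak covers a TSS, light where a peak lies within 2 kb only and white where there is none. CYP2J34, CYP2R1, CYP4V2 and CYP20A1 are dark in all 16 libraries, and CYP2B22, CYP4A21, CYP17A1 and CYP19A3 are white throughout.

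Accessibility over the whole gene was then measured as peak bases within the gene and 10 kb on either side, per Mb of all peak bases in that library, and compared on the log2(value + 1) scale with limma across 18340 genes. All 36 members entered the fit. The window held another protein-coding gene in 21 members and overlapped that of another member in 4. Peaks in such windows cannot be assigned to the P450 gene alone. Against lung, no member passed an adjusted p of 0.05 in either direction, where 0.0218% of all genes were higher and 0.0382% lower in liver; 1 member had an unadjusted p under 0.05, and the replicate block gave the same count. Against brain, CYP4V2 and CYP27A1 were higher (2 of 36, against 9.02% of all genes) and CYP2C32 was lower (1 of 36, against 1.6%). Against other tissues, CYP19A3, CYP19A2, CYP2C34 and CYP4F2 were higher (4 of 36, against 2.5%) and none was lower (1.44%). With animal as the replicate block, 2 of these 4 remained, CYP19A3 and CYP2C34. The median difference over all genes was 0.17 against lung, 0.46 against brain and -0.11 against other tissues, and over the members 0.31, 0.78 and 0.72.

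**Figure D3:**
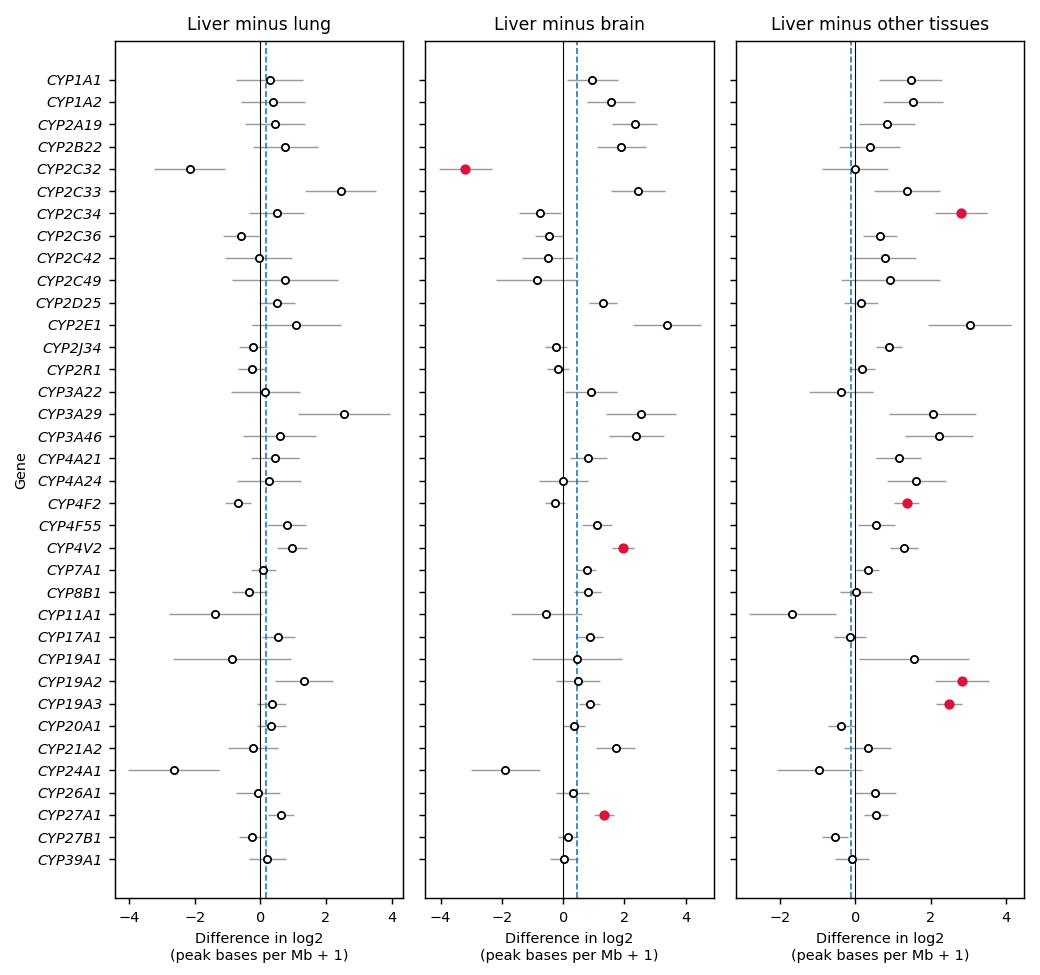
Difference in log2(peak bases per Mb + 1) of liver minus lung, brain and other tissues for each gene, with its standard error from limma; filled points passed an adjusted p of 0.05 and the dashed line is the median of all genes. The 7 filled points are CYP4V2, CYP27A1 and CYP2C32 against brain and CYP19A3, CYP19A2, CYP2C34 and CYP4F2 against other tissues.

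CYP4V2 was higher in liver than in brain, a call that held in 27 of 30 alternative settings. It had 72.9 and 35.8 peak bases per Mb in liver P348 and P350, 24.3 and 27.04 in lung, and in the 6 brain libraries a lowest value of 5.95, a median of 12.5 and a highest of 29.3. Both liver values lay above every brain value. The log2 difference against brain was 1.95 ± 0.37 (SE; limma adjusted p = 0.014). Without liver P348 it was 1.45 and no longer passed, and without both cerebellum libraries it was 1.49 (limma adjusted p = 0.067). Over the gene body alone it was 1.19 (limma adjusted p = 0.084). The window of CYP4V2 held 2 other protein-coding genes, and their part in its values was not tested.

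CYP27A1, a mitochondrial enzyme of bile acid synthesis, had 82.2 and 78.0 peak bases per Mb in liver and 61.8 and 42.7 in lung. Its 6 brain libraries ranged from 19.03 to 47.2 with a median of 32.2, and skeletal muscle reached 68.5 and 94.5. Liver thus lay above brain without overlap but not above muscle. The log2 difference against brain was 1.33 ± 0.32 (SE; limma adjusted p = 0.027). It was lost without either liver library or either cerebral cortex library, and without both cerebellum libraries it was 1.03.

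CYP2C32, CYP2C34, CYP2C36, CYP2C42 and CYP2C49, on chromosome 14, had their highest values in cerebellum. CYP2C33 was an exception, at 0 in both cerebellum libraries and at 28.8 and 0 in liver. CYP2C32 had no peak bases in either liver library and 34.7 and 32.4 in cerebellum, and its log2 difference against brain was -3.19 ± 0.88 (SE; limma adjusted p = 0.041). CYP2C34 had 77.3 and 35.2 in cerebellum and 15.3 and 6.3 in liver, and CYP2C36 had 65.5 and 36.2 beside 12.4 and 5.2. The cerebellum lists placed 44.5% and 52.0% of their peak bases in gene windows, the lowest of the 16 libraries, and the part of this in the CYP2C values was not tested. CYP2C32 passed the filter on low values only through its brain libraries, and with no filter its limma adjusted p was 0.053 and the call was lost. Without both cerebellum libraries the CYP2C32 difference was -2.23 and did not pass.

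Of the differences against other tissues, those of CYP19A3 and CYP4F2 turned on skeletal muscle. CYP19A3, one of the pig aromatase genes, had 52.5 and 72.1 peak bases per Mb in liver, 0 in both muscle libraries and 28.1 to 46.1 in adipose and spleen, for a log2 difference of 2.49 ± 0.35 (SE; limma adjusted p = 0.0039). Without both muscle libraries this was 0.75 and did not pass. CYP4F2, a fatty acid and vitamin E hydroxylase, also had 0 in both muscle libraries and 24.9 and 21.2 in liver, and its difference of 1.36 ± 0.33 (SE; limma adjusted p = 0.042) turned to -0.25 without muscle. CYP19A2 (2.83 ± 0.72) and CYP2C34 (2.82 ± 0.69) kept their direction at 2.52 and 2.91 but did not pass. Under the replicate block the adjusted p of limma was 0.056 for CYP19A2 and 0.060 for CYP4F2.

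When only peaks of q under 0.0001 were counted, some calls were gained and others lost. 32 members entered this fit, and CYP1A2 and CYP2E1 were higher than in lung (1.8% of all genes). Against brain 7 were higher (7.99% of all genes), namely CYP1A2, CYP2C42, CYP2D25, CYP2E1, CYP3A46, CYP4A21 and CYP4V2. Against other tissues 7 were higher (6.87%), with CYP4F2 in place of CYP2D25. CYP27A1 no longer passed against brain (limma adjusted p = 0.16), nor did CYP19A3 (0.42), CYP19A2 (0.30) and CYP2C34 (0.19) against other tissues, and CYP2C32 did not enter the fit. The call of CYP2C42 against brain was on means of log values, since it had 8.19 and 8.14 in liver, 43.5 and 27.4 in cerebellum, and 0 in cerebral cortex and hypothalamus. CYP2E1 had 71.1 and 36.8 peak bases per Mb in liver and none in the 14 other libraries at this limit, so that it passed the filter on low values only through liver and its values are a description. CYP1A2, which oxidises caffeine, had 26.6 and 19.6 in liver, none in lung, cerebellum, adipose, muscle or spleen, and 9.39 to 17.04 in cerebral cortex and hypothalamus. With all peaks counted, however, CYP1A2 had 22.8 and 9.62 in liver and up to 46.7 in adipose P350. CYP3A46 had 49.7 and 14.3 in liver and only 9.7 in lung P350 elsewhere. Like CYP2E1, it passed the filter only through liver, so its values are a description.

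CYP2A19 was the only member with both liver libraries (30.2 and 35.7) above the 14 others in peak bases, of which the highest was 28.1; 1.14% of all genes met this criterion. By the highest fold enrichment of any peak in the window, 7 members did (15.5% of all genes): CYP2E1, CYP3A46, CYP4A24, CYP4F2, CYP7A1, CYP20A1 and CYP26A1. CYP4F2 had folds of 10.7 and 7.19 in liver and at most 4.25 elsewhere. CYP3A46 reached 8.87 and 4.75 in liver and at most 3.98 elsewhere.

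**Figure D4:**
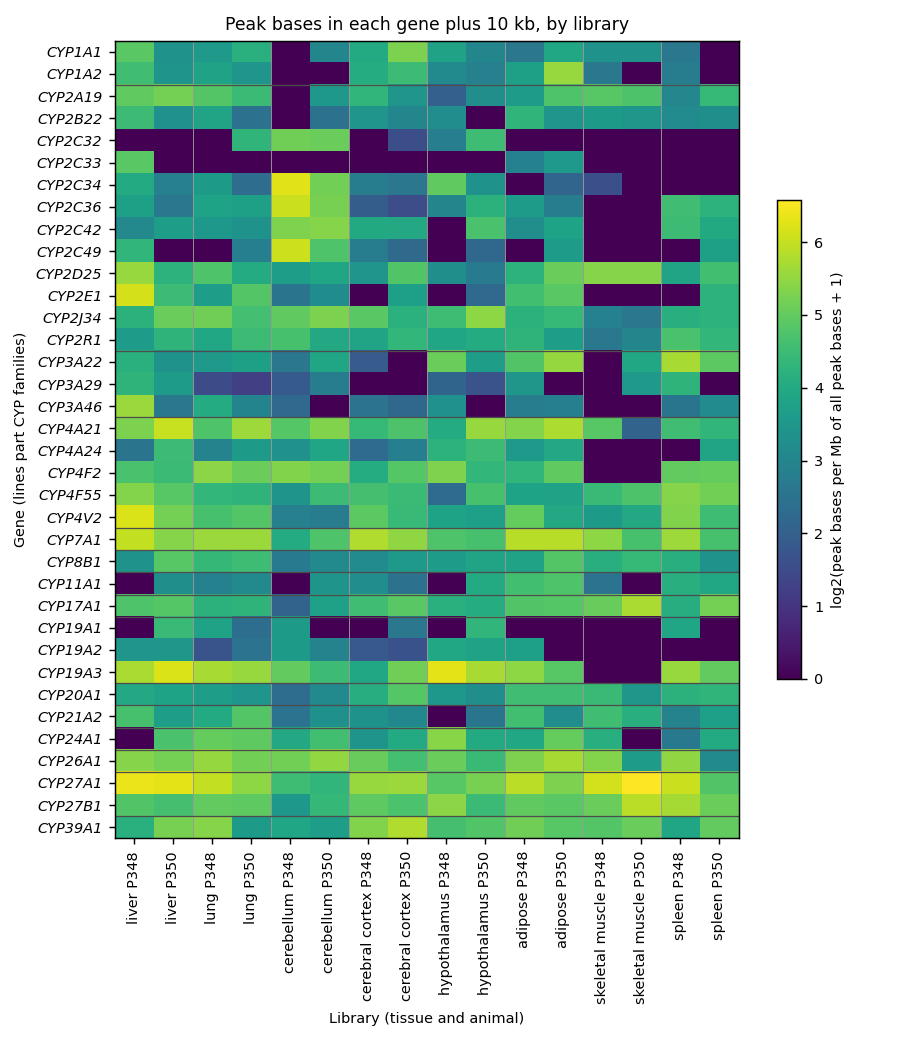
Peak bases in each gene and 10 kb around it, as log2(peak bases per Mb of all peak bases + 1), for 36 genes (rows, by family) and 16 libraries (columns). The rows of CYP2C32, CYP2C34, CYP2C36, CYP2C42 and CYP2C49, but not CYP2C33, are brightest in cerebellum, and the CYP19A rows are dark in skeletal muscle.

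Family totals were formed from merged windows, and are given without a test. Over all 36 genes the total was 956 and 806 peak bases per Mb in liver P348 and P350, and at most 787 in the 14 others. Family 4 (5 genes) had 180 and 170 in liver and at most 138 elsewhere, so these values did not overlap with all peaks and full windows counted. The log2 ratio of the liver mean to the mean of the 14 others was 0.74 for family 4. It was 0.88 with lists of equal length and 0.53 over the gene body alone. Values by library are not given for these settings, so non-overlap is stated only for all peaks and full windows. No such total was formed for other gene sets, so no share stands beside it. Family 2 (12 genes) had 281 and 159 in liver but 353 and 260 in cerebellum. Family 3 (3 genes) had 82.4 and 25.6 in liver and 74.8 in spleen P348. The animals therefore differed widely within liver for family 3, and 6 of the 14 other libraries exceeded the lower liver value.

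**Figure D5:**
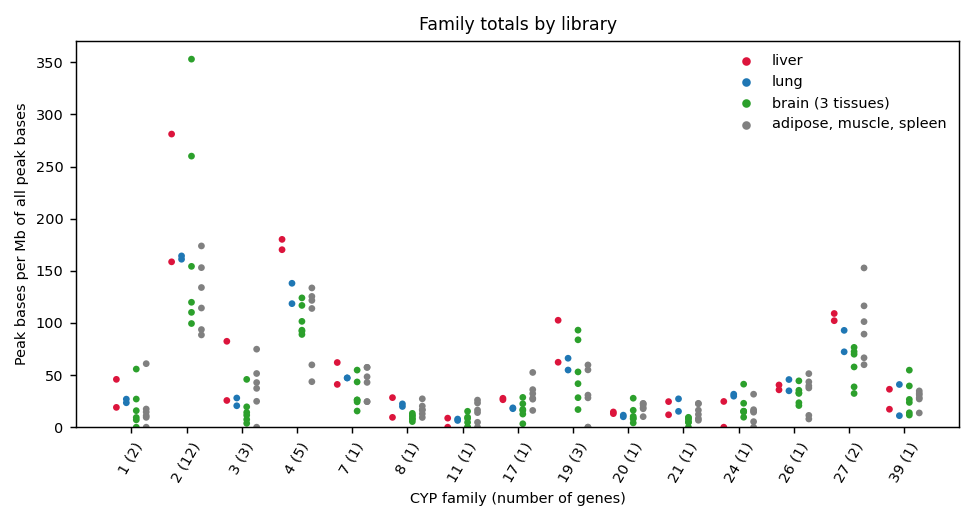
Family totals in peak bases per Mb of all peak bases (vertical axis), with 1 point per library coloured by tissue group and the number of genes in brackets. For family 4 both liver points, 180 and 170, lie above the other 14, with all peaks and full windows counted.

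Among the bile acid enzymes, CYP7A1, the rate-limiting enzyme of the classical pathway, had 62.0 and 41.0 peak bases per Mb in liver and 47.2 and 47.3 in lung. Its log2 differences were 0.09, 0.77 and 0.32 against lung, brain and other tissues, and none passed. A start of SDCBP lay 2208 bp from a start of CYP7A1, so peaks in this window cannot be assigned to CYP7A1 alone. CYP8B1 had 9.4 and 28.4 in liver, overlapping each of the other arms. CYP39A1 had 17.2 and 36.4 in liver and up to 54.7 in cerebral cortex P350.

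Of the steroid-making members, CYP19A2 and CYP19A3 passed against other tissues and the rest in no comparison. CYP11A1, which starts steroid synthesis from cholesterol, had 0 and 8.7 in liver and 23.2 and 26.0 in adipose. CYP17A1 (26.3 and 27.7 in liver) and CYP21A2 (24.5 and 11.9) overlapped the other tissues. CYP19A1 was at 0 in 9 of 16 libraries. Of the vitamin enzymes, CYP24A1, which breaks down vitamin D, had 0 and 24.7 in liver and 31.7 and 29.7 in lung, CYP27B1, which activates it, had 26.9 and 24.1 beside 31.04 and 29.6, and CYP26A1, which breaks down retinoic acid, had 40.5 and 35.8 beside 45.7 and 34.9. CYP1A1, known for induction by aromatic compounds, had 28.8 and 9.4 in liver and up to 37.9 in cerebral cortex P350.

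Merging the peaks of all libraries gave 347 regions in the member windows, of which 72 had a peak in both liver libraries. Of these, 7 had no peak in the 14 other libraries (9.72%, against 4.56% over the windows of all genes). They lay in the windows of CYP19A3, CYP20A1, CYP21A2, CYP2D25, CYP7A1 and, with 2 regions, CYP4V2. The region in CYP7A1 (chr4:74366927-74367372) overlapped an exon, with folds of 6.02 and 3.81. In CYP4V2, 1 region overlapped the last exon (chr15:47066296-47066564, folds 5.76 and 5.17) and the other lay beyond the 3′ end (chr15:47071348-47072557, folds 6.69 and 3.98). The region in CYP21A2 (chr7:24088423-24088829) overlapped an exon, with folds of 7.17 and 3.85.

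Genes that work with the P450 enzymes were called mostly against brain, where 9.02% of all genes were higher, beside 2.5% against other tissues and 0.0218% against lung. Of 5 electron transfer and haem genes, CYB5A (2.03) and FDX1 (1.54) were higher than in brain on the log2 scale. Of 10 receptors that regulate these genes, 4 were higher than in brain, including NR0B2 (2.62) and RXRA (1.78), and NR1H4, the bile acid receptor, was higher than in other tissues (1.97). Of 7 bile acid genes, 4 were higher than in brain, including AKR1D1 (2.19) and SLC27A5 (1.44). Of 8 other drug-metabolising genes none was called in any arm with all peaks counted, and at q under 0.0001 there were 4 higher than in brain, 3 than in other tissues and 1 than in lung. Over all genes at q under 0.0001, 7.99% were higher than in brain, 6.87% than in other tissues and 1.8% than in lung. At that limit 1 electron transfer gene and 1 bile acid gene were higher than in brain, 1 bile acid gene was higher than in other tissues, and 2 receptors were higher in each comparison. None of these 30 genes was called against lung, or called lower in liver, with all peaks counted.

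Several members hold sequence repeated elsewhere in the assembly. In 13 of 36 genes, under 80% of the 40-base words, the read length used, occurred once in the genome. The share was lowest for CYP2B22 (12.0%), CYP4A24 (12.6%), CYP2C33 (26.9%) and CYP4A21 (33.0%), so their values are uncertain. CYP2B22 and CYP4A21 were among the 4 genes without a start peak. The called genes CYP19A2 (46.4%), CYP2C32 (56.7%), CYP2C34 (69.0%), CYP19A3 (78.7%) and CYP4F2 (79.7%) were also under 80%. CYP4V2 (94.7%) and CYP27A1 (91.8%) were above it. CYP2C36 (71.2%), CYP2C49 (56.2%) and CYP4F55 (51.7%) were under it too, so every family 4 gene but CYP4V2 was. Over the 16 libraries the lists held 99960 to 217308 peaks. Of 22 tissue marker genes, 10 had their highest mean in their own tissue, and 4 had both own libraries above the 14 others. Among the liver markers, ALB had 125 and 57.8 in liver P348 and P350, and at most 35.1 elsewhere. APOH had 40.4 and 6.9, and at most 20.3 elsewhere. SERPINC1 had 33.9 and 21.4, and up to 42.5 elsewhere.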

How the data were processed

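ATAC-seq libraries of 16 pig samples were used; 15 libraries of the other species were not used here. Per the labels, fragments of 150 to 250 bp were selected and sequenced as paired 40-base reads, and the submitters' processing notes name Trim Galore 0.4.5, BWA 0.7.17, SAMtools 1.10 and Picard 2.18.17. The authors called broad peaks with MACS2 per library; how reads were shifted for the transposase is not given in the sources used here. The deposited lists give for each peak a score, a fold enrichment ratio, a -log10 p-value and a -log10 q-value, and the largest q in them was 0.0999. They hold peaks only, so low signal reads as 0.

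Peak bases per gene window (gene and 10 kb) were divided by all peak bases of the library in Mb. Windows came from RefSeq Annotation Release 106 of Sscrofa11.1, the build of the files. log2(value + 1) was fitted with limma 3.58.1 (R 4.3.3) over 8 tissue means, with genes above 0 in at least 2 libraries, moderated variances with a trend, and Benjamini-Hochberg adjustment over 18340 genes; 8 residual degrees of freedom remained. Tables were made with numpy, pandas and Python. The script was tested on simulated data. Same-named libraries come from the same animal, so numbers pair the samples; over 28 tissue pairs the correlation of their deviations was -0.179 to 0.131 (median 0.006). Members and lists were chosen with earlier results of these data known. Named genes were members passing a contrast, the member of each family highest in liver, and a list of well-known enzymes. CYP1B1, CYP2S1, CYP2U1, CYP4B1, CYP7B1, CYP26B1 and CYP46A1 are not analysed here, and 1 gene of a partner list and 1 promoter sequence are not reported here. Alternatives covered the filter, pseudocount, window, q limit, list length, scaling, replicate block and each library left out.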

Additional observations from a re-analysis of the deposited data

How the results depend on the processing

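The number of members higher in liver changed with many settings. Against lung, 0 became 2 at q under 0.0001, and 0 to 1 when single libraries were left out. Against brain, 2 became 4 with pseudocount 5, 4 at q under 0.01, 7 at q under 0.0001, 1 per Mb of peak bases in gene windows, 5 by number of peaks and 0 without both cerebellum libraries, a setting chosen after seeing the data; leaving out single libraries gave 0 to 7, with 0 without liver P348. The 1 member lower than in brain became 0 with no filter, a mean of at least 5, the gene body alone, 10 kb around the start, q under 0.0001, scaling within gene windows or no cerebellum, and 0 to 2 without single libraries. Against other tissues, 4 became 2 with the replicate block, 1 with pseudocount 5, 2 with no filter or a mean of at least 5, 0 with 10 kb around the start, 1 at q under 0.01, 7 at q under 0.0001, 1 with lists of equal length, 0 without both skeletal muscle libraries (added after seeing the data, turning CYP4F2 to -0.25), and 1 to 4 without single libraries. The block changed no other call. The cause of these changes was not tested, and beyond q under 0.0001 the shares over all genes in these settings are not given here.

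Members open in liver rose from 18 to 29 when either animal sufficed, and were 23 to 24 with 1 animal. The 1 liver-only member against lung became 3 at 500 bp, 2 over the start, 2 at q under 0.01, 3 at q under 0.0001, 2 with equal lists and 5 with either animal (3 to 5 with 1 animal). Against brain it became 3 at 500 bp, 4 over the start, 4 at q under 0.0001 and 5 with either animal (2 to 5 with 1 animal). Against other tissues it became 2 at 500 bp, 3 over the start, 2 at q under 0.01, 3 at q under 0.0001 and 7 with either animal (5 with 1 animal). The 1 member with both livers above the 14 others became 2 with 10 kb around the start, 0 at q under 0.01, 5 at q under 0.0001, 2 with equal lists, 7 by highest fold (added after seeing the data) and 7 to 12 with 1 animal. By highest fold, 15.5% of all genes met this criterion. Apart from that and the counts over the start, shares over all genes are not given in these settings. Counts without such a share cannot be read as particular to the members.

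Of the 7 calls, CYP4V2 held in 27 of 30 alternatives, CYP19A3 in 25 and CYP27A1 in 20. CYP19A2 was lost in 12 of 16 fits without 1 library, CYP2C32 in 12, CYP4F2 in 11, CYP2C34 in 10, CYP27A1 in 4, CYP4V2 only without liver P348 and CYP19A3 only without liver P350. Of 101 comparisons that did not pass, 59 changed sign in at least 1 alternative. The lists hold no read counts, and a gene below the peak limit reads as 0.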

Other observations

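2 P450 genes fell outside the naming rule. LOC100739741, annotated as CYP2C23-like on chromosome 14, had 24.0 and 7.61 peak bases per Mb in liver and at most 4.79 in the 14 other libraries. Its log2 difference was 3.61 ± 0.66 (SE) against other tissues and 2.25 ± 0.66 against brain, with limma adjusted p of 0.013 and 0.048. CYP51, a cholesterol synthesis enzyme found in most cells, had 23.4 and 19.5 in liver and up to 46.6 in skeletal muscle P348, and passed in no comparison.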
